A study of Mus musculus with 12 samples.

Results

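Interferon-stimulated genes are the genes that cells switch on when interferon reaches them, and 44 of them were followed here in fat cells given the plant alkaloid berberine. They were chosen by name, as probe sets whose only gene symbol in the platform annotation is a listed gene. That rule uses no measured value, but the list was drawn up with earlier results of these data known. Of the 44 genes, 42 had such a probe set (69 in all), and 41 could be tested among 12136 genes tested of 18193 on the array. Oas3, an oligoadenylate synthetase, was not well above background: its probe set reached the detection threshold, a log2 signal of 5.77, on 0 of 12 arrays, with a highest log2 signal of 5.35. Ifi44 and Isg15 are not analysed here. Of the 41 tested genes, 37 lay at or above the threshold on all 12 arrays, and Dhx58, Sp100, Oasl1 and Mx2 did so on 11, 9, 8 and 3 arrays.

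The cells were 3T3-L1, a mouse fibroblast line that turns into adipocytes in culture. Each of the 4 groups held 3 single-colour Affymetrix arrays: DMSO, the solvent, and 5 µM berberine for 3, 6 and 12 h. All groups had been induced to differentiate over 48 h by 0.5 mM IBMX together with 1 µM dexamethasone and 5 µg/ml insulin. They were used at days 8 to 10, and were kept in serum-free medium holding 0.2% bovine serum albumin for 12 h before treatment. How long the DMSO cells were incubated is not stated, and the same 3 DMSO arrays serve as control for all berberine times, so berberine and time in culture cannot be told apart in those comparisons. Nothing in the labels says that arrays of a group came from separate cultures. The p-values therefore cover the spread of these arrays alone, which may be technical, and 3 arrays per group limit the precision. The arrays measured bulk RNA, in which fewer cells expressing a gene and less RNA of it per cell cannot be told apart.

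Type I interferons bind the receptor chains IFNAR1 and IFNAR2, and the kinases JAK1 and TYK2 then phosphorylate transcription factors of the STAT family. Together with IRF9, STAT2 takes part in the complex ISGF3, which binds the interferon-stimulated response element (ISRE) in the promoters of its targets. Interferon gamma acts through another receptor and a STAT dimer that binds the gamma-activated site (GAS). The genes switched on include antiviral effectors, sensors of foreign nucleic acid, transcription factors that carry the response further, guanylate-binding and immunity-related GTPases, chemokines and parts of the antigen-presentation pathway. Adipocytes carry interferon receptors and answer interferon with this programme.

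The promoters of the listed genes are shown because the ISRE is what many of them have in common apart from their name. RefSeq promoter windows of the GRCm38.p6 build, 300 bases long with 250 before and 50 after the transcription start, were at hand for 32 of the 44 genes. The ISRE was searched on both strands as GAAA, any 2 bases and GAAA. It occurred in 14 of the 32 genes, or 43.8%, against 3.99% of all 27025 genes in the same table (3.44% of windows). The GAS, searched as TTCNNNGAA, where N is any base, which reads the same on both strands, occurred in 7 of the 32 genes, or 21.9%, against 9.55% of all genes. In Oas1a, Bst2 and Igtp the window held both motifs, and neighbouring ISRE matches overlapped in some windows. A match is a description of the letters, not a binding site.

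Below are the windows of Ifit3, Ifit1 and Rsad2, the genes with the largest called changes at 12 h among those that hold the motif. They are written along each gene from 5′ to 3′. Capitals mark ISRE matches, which read TTTC, 2 bases and TTTC here because they lie on the opposite strand.
Ifit3 promoter, chr19:34583279-34583578, plus strand: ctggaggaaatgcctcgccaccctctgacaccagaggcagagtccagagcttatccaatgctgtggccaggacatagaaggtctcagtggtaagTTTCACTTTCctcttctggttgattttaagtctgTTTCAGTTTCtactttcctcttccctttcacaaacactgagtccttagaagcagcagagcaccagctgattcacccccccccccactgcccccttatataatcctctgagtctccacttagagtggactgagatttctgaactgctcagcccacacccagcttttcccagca
Ifit1 promoter, chr19:34640639-34640938, plus strand: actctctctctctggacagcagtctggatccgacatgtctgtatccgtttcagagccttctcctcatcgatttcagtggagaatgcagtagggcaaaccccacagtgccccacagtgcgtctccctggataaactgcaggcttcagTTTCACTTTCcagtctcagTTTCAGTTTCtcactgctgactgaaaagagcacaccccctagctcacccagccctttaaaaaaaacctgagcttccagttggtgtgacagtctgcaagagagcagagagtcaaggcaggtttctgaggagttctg
Rsad2 promoter, chr12:26456403-26456702, minus strand: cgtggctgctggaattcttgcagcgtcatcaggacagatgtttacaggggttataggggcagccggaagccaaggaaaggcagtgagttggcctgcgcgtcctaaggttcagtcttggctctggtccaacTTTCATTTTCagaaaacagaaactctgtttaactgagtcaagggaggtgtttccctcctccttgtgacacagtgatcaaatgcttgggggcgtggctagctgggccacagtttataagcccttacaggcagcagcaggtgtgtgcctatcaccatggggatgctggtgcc

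The stretch around the ISRE is shown next for the 12 tested genes that hold it, turned so that each match starts and ends with GAAA, so that the motif can be compared between genes. Capitals mark the match, and where a window held several the one nearest the start is shown.
Bst2, chr8:71537577-71537606, minus strand: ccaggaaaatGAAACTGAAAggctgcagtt
Cxcl10, chr5:92349083-92349112, minus strand: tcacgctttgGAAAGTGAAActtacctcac
Ddx58, chr4:40239804-40239833, plus strand: ctggccatagGAAATCGAAActgcctcagg
Gbp2, chr3:142620594-142620623, minus strand: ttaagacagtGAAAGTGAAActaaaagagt
Gbp3, chr3:142559995-142560024, minus strand: agggatctggGAAATAGAAActgaaactgt
Ifih1, chr2:62646206-62646233, minus strand: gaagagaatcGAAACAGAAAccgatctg
Ifit1, chr19:34640794-34640823, minus strand: tcagcagtgaGAAACTGAAActgagactgg
Ifit3, chr19:34583397-34583426, minus strand: gaggaaagtaGAAACTGAAAcagacttaaa
Igtp, chr11:58199512-58199541, plus strand: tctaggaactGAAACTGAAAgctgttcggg
Oas1a, chr5:120907520-120907549, minus strand: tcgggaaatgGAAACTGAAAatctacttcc
Rsad2, chr12:26456553-26456582, plus strand: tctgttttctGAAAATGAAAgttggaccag
Stat2, chr10:128270266-128270295, minus strand: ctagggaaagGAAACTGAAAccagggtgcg

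These matches lay between 222 bases before the start, in Stat2, and 33 bases after it, in Ifih1. In the windows of Herc6, Xaf1, Oasl2 and Sp100, which also had a log2 change above 1 at 12 h, neither motif was found, and Ifit2, with such a change too, held only a GAS. The window of Irf1 held the GAS TTCCCCGAA, 90 bases before the start. Of the 12 tested genes with an ISRE in the window, 11 were called higher at 12 h, with a median log2 change of 0.91 (range 0.39 to 1.86). Of the 17 tested genes whose window held none, 13 were called higher, with a median of 0.64 (range -0.96 to 1.63). Over all genes tested, 13.7% were called higher at 12 h, and among all tested members 33 of 41 were. The difference between the genes with and without an ISRE was not tested.

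After 12 h of berberine, 33 of the 41 genes were higher than with DMSO and 0 were lower at an adjusted p under 0.05 (limma, Benjamini-Hochberg over all genes tested). Of all genes tested, 13.7% were called higher and 14.6% lower. At an unadjusted p under 0.05 the members numbered 34 higher and 1 lower, the last being Oasl1, and 18.5% of all genes were higher. The median log2 change of the members was 0.85, against -0.01 over all genes, and the mean was higher than with DMSO in 40 of 41 genes. In 33 genes the lowest 12 h array lay above the highest DMSO array, which held for 19.1% of all genes, and in 1, Oasl1, the order was reversed, which held for 20.3% of all genes. Called changes ranged from a log2 change of 0.32 for Irf1 to 1.86 for Ifit3, and 13 called genes had a fitted log2 change of 1 or more, among them Sp100, whose DMSO signals were mostly under the threshold and for which only a bound, given with the gene, holds. Of the 33 calls, 26 held under every other setting of the analysis and 28 with any single array left out. The calls of Mx1, Rtp4, Stat2, Sp100, Ddx58, Dhx58 and Zbp1 were lost under at least 1 setting.

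After 6 h, 10 members were higher and 0 lower, against 7.24% and 6.98% of all genes. At an unadjusted p under 0.05 there were 18 higher and 0 lower, where 13.6% of all genes were higher. The median log2 change was 0.28 against 0.01 over all genes. The 10 were Ifit1, Ifit2, Ifit3, Rsad2, Bst2, Oas1a, Oas2, Herc6, Irf1 and Tap1, and the groups did not overlap, with 6 h above DMSO, in 12 members against 15.7% of all genes. The count of 10 rested on few arrays. It was 3 without 6 h replicate 3 or DMSO replicate 2, 4 without DMSO replicate 1 and 6 without 3 h replicate 2, an array that enters through the shared estimate of the spread. Only the calls of Ifit2 and Tap1 held under every setting tried. That of Tap1 held barely, with an adjusted p of up to 0.0499984 with a single array left out.

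After 3 h, 1 member was higher, Irf1, and 0 were lower, against 1.09% and 0.816% of all genes. At an unadjusted p under 0.05 there were 6 higher and 1 lower, where 7.72% of all genes were higher. The median log2 change of the members was 0.12, against 0.02 over all genes. In Samd9l, Tap1, Ifih1, Oas2, Parp9 and Irf1 all 3 h arrays lay above all DMSO arrays, 6 members in all against 10.5% of all genes. The 3 comparisons share the DMSO arrays, so their values are not independent of each other.

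**Figure D1:**
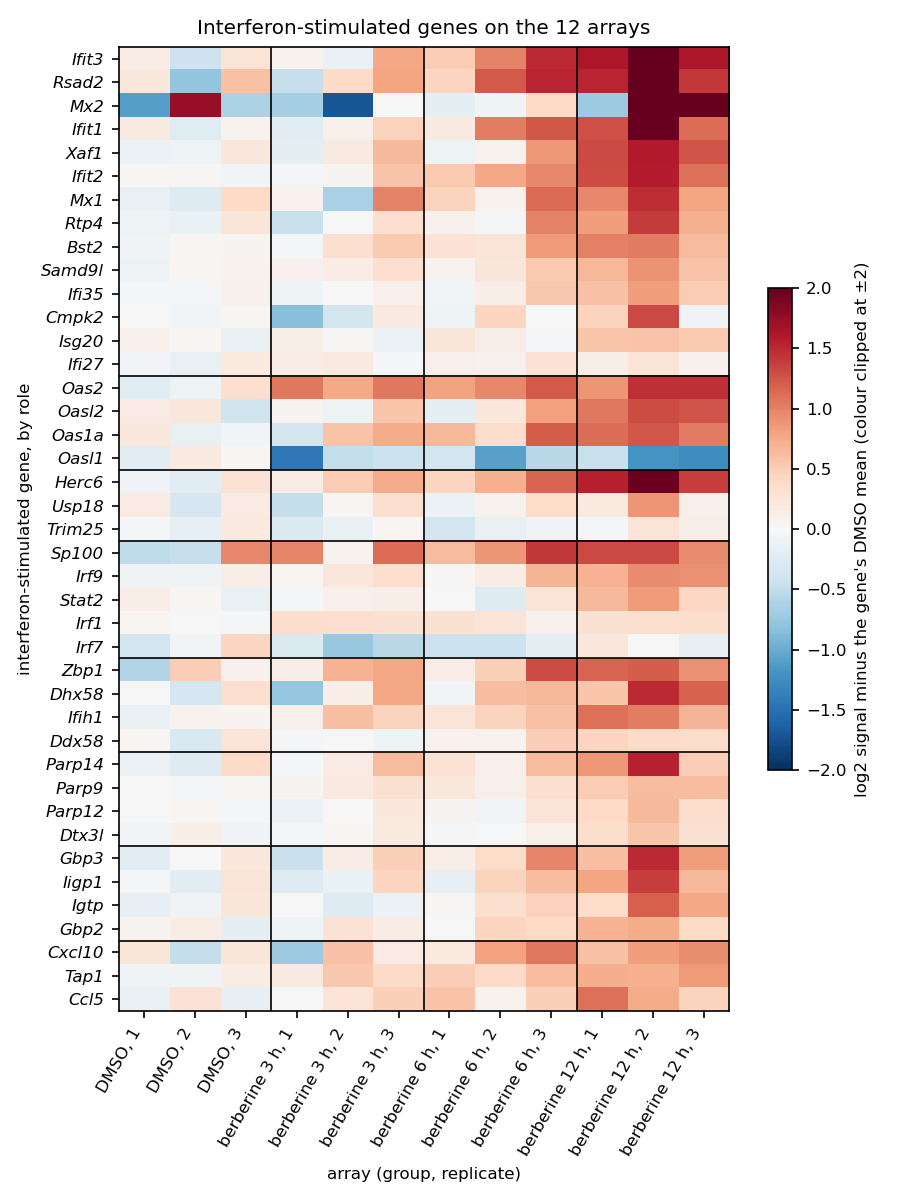
Log2 signal of each tested gene on each of the 12 arrays minus its mean with DMSO (colour scale), with genes in rows grouped by role and arrays in columns from DMSO through 3 and 6 h to 12 h. The 12 h columns are high in nearly all rows, while Oasl1 is low there.

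**Figure D2:**
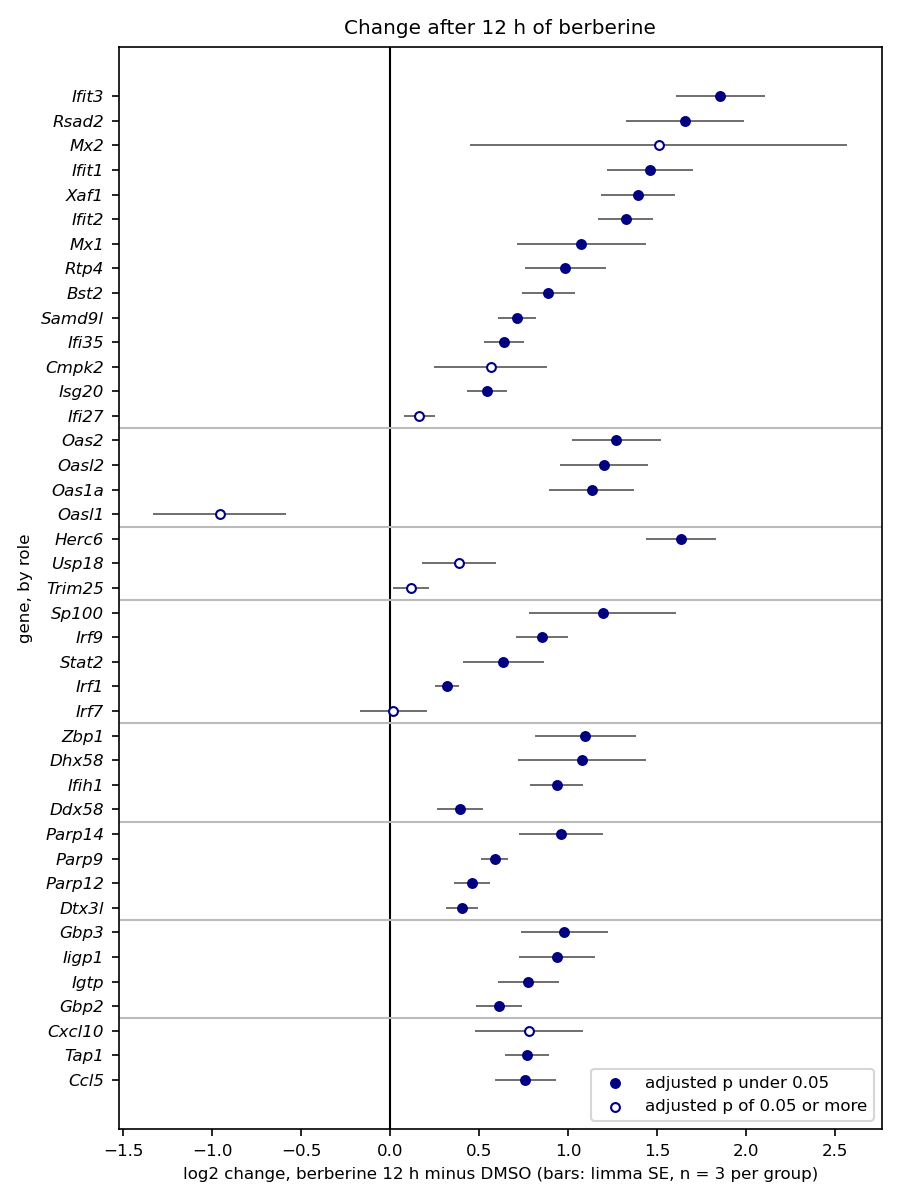
Log2 change at 12 h against DMSO of each of the 41 tested genes, with bars for limma's standard error and 3 arrays per group, grouped by role. Filled points mark the 33 genes with an adjusted p under 0.05, all of them right of 0, and Oasl1 is the only point left of 0.

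Some of the genes grouped here as antiviral effectors encode proteins that act directly on viral RNA, proteins or particles. Of 14 tested, 11 were higher at 12 h and 5 at 6 h, with a median log2 change of 1.03 at 12 h. Over all genes tested, 13.7% were called higher at 12 h and 7.24% at 6 h, the shares to set beside the count of each role. The Ifit proteins bind RNA that lacks the marks of host messenger RNA. Ifit3 had log2 signals of 10.08, 9.50 and 10.19 with DMSO, 10.00, 9.79 and 10.69 at 3 h, 10.43, 10.91 and 11.42 at 6 h and 11.55, 12.26 and 11.54 at 12 h. All 6 and 12 h arrays lay above all DMSO arrays, and the 12 h arrays above the 6 h arrays as well. Ifit3 was 3.62-fold higher at 12 h than with DMSO (log2 change 1.86 ± 0.25 SE, adjusted p = 2.68e-05) and 2.00-fold higher at 6 h (1.00 ± 0.25 SE, adjusted p = 0.013, or 0.0596 to 0.0747 without DMSO replicate 2 or 6 h replicate 3). Ifit1 had log2 signals of 9.30, 8.88 and 9.19 with DMSO, 8.92, 9.23 and 9.59 at 3 h, 9.31, 10.15 and 10.37 at 6 h and 10.41, 11.10 and 10.25 at 12 h. Its 3 h arrays overlapped those of DMSO, and its 6 and 12 h arrays did not. Ifit1 was 2.75-fold higher at 12 h (1.46 ± 0.24 SE, adjusted p = 0.000183) and 1.76-fold higher at 6 h (0.82 ± 0.24 SE, adjusted p = 0.0301, or 0.0566 to 0.147 without DMSO replicates 2 or 3 or 6 h replicates 2 or 3). Ifit2 had log2 signals of 8.55, 8.55 and 8.48 with DMSO, 8.49, 8.58 and 9.10 at 3 h, 9.06, 9.30 and 9.49 at 6 h and 9.83, 10.09 and 9.62 at 12 h. The DMSO arrays of Ifit2 lay close together, and all arrays at 6 and 12 h were above them. Ifit2 was 2.50-fold higher at 12 h (1.32 ± 0.15 SE, adjusted p = 5.04e-06) and 1.69-fold higher at 6 h (0.76 ± 0.15 SE, adjusted p = 0.00323), and it was also higher at 12 h than at 6 h (0.57 ± 0.15 SE, adjusted p = 0.0377).

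Rsad2 encodes viperin, a radical SAM enzyme that makes a chain-terminating nucleotide, and it lies next to Cmpk2, a nucleotide kinase, in RefSeq's gene order. Rsad2 had log2 signals of 8.45, 7.46 and 8.82 with DMSO, 7.77, 8.62 and 9.03 at 3 h, 8.67, 9.46 and 9.76 at 6 h and 9.76, 10.28 and 9.66 at 12 h. DMSO replicate 2 was the lowest array, and 1 array at 6 h lay within the DMSO range. Rsad2 was 3.15-fold higher at 12 h (1.66 ± 0.33 SE, adjusted p = 0.00111) and 2.08-fold higher at 6 h (1.06 ± 0.33 SE, adjusted p = 0.0414, or 0.0508 to 0.193 without DMSO replicates 1 or 2, 3 h replicate 2 or 6 h replicates 2 or 3). Of its 2 other kept probe sets, 1 had log2 changes of 0.96 at 6 h and 1.48 at 12 h, both called when every kept probe set was tested. The other had 0.29 at 6 h and 1.14 at 12 h, and neither was called. With the mean of its kept probe sets the 6 h change was 0.77 and the adjusted p 0.167. Cmpk2 had log2 signals of 6.98, 6.91 and 7.01 with DMSO, 6.13, 6.60 and 7.15 at 3 h, 6.88, 7.39 and 6.95 at 6 h and 7.41, 8.29 and 6.90 at 12 h. Its 12 h arrays were spread widely and overlapped DMSO, and the log2 change of 0.57 ± 0.32 SE was not called (adjusted p = 0.209, 95% interval -0.10 to 1.23). Bst2, tetherin, holds budding viruses at the cell surface. Bst2 had log2 signals of 10.71, 10.80 and 10.83 with DMSO, 10.74, 11.11 and 11.30 at 3 h, 11.07, 11.04 and 11.63 at 6 h and 11.78, 11.81 and 11.41 at 12 h. All arrays from 6 h on lay above DMSO. The gene was 1.85-fold higher at 12 h (0.89 ± 0.15 SE, adjusted p = 0.00021) and 1.38-fold higher at 6 h (0.47 ± 0.15 SE, adjusted p = 0.0426, or 0.0529 to 0.221 without DMSO replicates 1, 2 or 3, 3 h replicate 2 or 6 h replicate 3).

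Xaf1 encodes a pro-apoptotic binding partner of the caspase inhibitor XIAP. Xaf1 had log2 signals of 9.82, 9.83 and 10.16 with DMSO, 9.75, 10.11 and 10.58 at 3 h, 9.84, 10.00 and 10.80 at 6 h and 11.26, 11.52 and 11.19 at 12 h. Its 3 and 6 h arrays overlapped DMSO, while each 12 h array lay above every other array. At 12 h Xaf1 was 2.63-fold higher (1.39 ± 0.21 SE, adjusted p = 7.24e-05), though its other kept probe set had a log2 change of 0.17. Mx1 is a dynamin-like GTPase that restricts influenza viruses in mice, and Mx2 is its paralogue. Mx1 had log2 signals of 6.43, 6.33 and 6.98 with DMSO, 6.65, 5.93 and 7.57 at 3 h, 7.02, 6.65 and 7.71 at 6 h and 7.53, 8.06 and 7.37 at 12 h, with 1 array each at 3 and 6 h as high as those at 12 h. It was 2.11-fold higher at 12 h (1.08 ± 0.36 SE, adjusted p = 0.0342, or 0.0597 to 0.14 without DMSO replicates 1 or 2 or 12 h replicates 1 or 2). Mx2 had log2 signals of 3.25, 6.10 and 3.73 with DMSO, 3.70, 2.65 and 4.35 at 3 h, 4.19, 4.28 and 4.75 at 6 h and 3.63, 7.24 and 6.75 at 12 h, most of them under the threshold. Its change of 1.51 ± 1.06 SE was not called (adjusted p = 0.329), and the fold is not read because only 1 DMSO array measured it.

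Rtp4, a chaperone of cell-surface receptors with antiviral activity, had log2 signals of 11.08, 11.06 and 11.43 with DMSO, 10.75, 11.19 and 11.52 at 3 h, 11.27, 11.16 and 12.18 at 6 h and 12.03, 12.59 and 11.90 at 12 h. Only the 12 h arrays lay wholly above DMSO, and Rtp4 was 1.98-fold higher at 12 h (0.98 ± 0.23 SE, adjusted p = 0.00343). With the mean of its kept probe sets in place of the brightest, the log2 change was 0.66 and the adjusted p 0.0506. Samd9l, an interferon-inducible restriction factor of poxviruses, had log2 signals of 10.74, 10.88 and 10.91 with DMSO, 10.93, 11.00 and 11.17 at 3 h, 10.91, 11.08 and 11.37 at 6 h and 11.51, 11.74 and 11.42 at 12 h. All berberine arrays lay above all DMSO arrays, 6 h replicate 1 by less than 0.01, and the gene was 1.64-fold higher at 12 h (0.71 ± 0.11 SE, adjusted p = 6.60e-05). Ifi35, a leucine zipper protein that pairs with Nmi, had log2 signals of 11.98, 11.97 and 12.10 with DMSO, 11.93, 12.02 and 12.12 at 3 h, 11.97, 12.15 and 12.55 at 6 h and 12.60, 12.85 and 12.52 at 12 h. The 3 h arrays matched the DMSO range, and at 12 h the gene was 1.56-fold higher (0.64 ± 0.11 SE, adjusted p = 0.000373). Isg20, an exonuclease that degrades single-stranded RNA, had log2 signals of 8.69, 8.62 and 8.43 with DMSO, 8.70, 8.60 and 8.47 at 3 h, 8.81, 8.69 and 8.55 at 6 h and 9.13, 9.14 and 9.10 at 12 h. Its 12 h arrays lay within 0.05 of each other and above all others, 1.46-fold higher than DMSO (0.54 ± 0.11 SE, adjusted p = 0.00144). Ifi27, a small membrane protein, ranged from 13.72 to 14.15 over the 12 arrays and was not called at 12 h (0.17, adjusted p = 0.173, 95% interval -0.02 to 0.35, or 0.0196 without DMSO replicate 3).

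**Figure D3:**
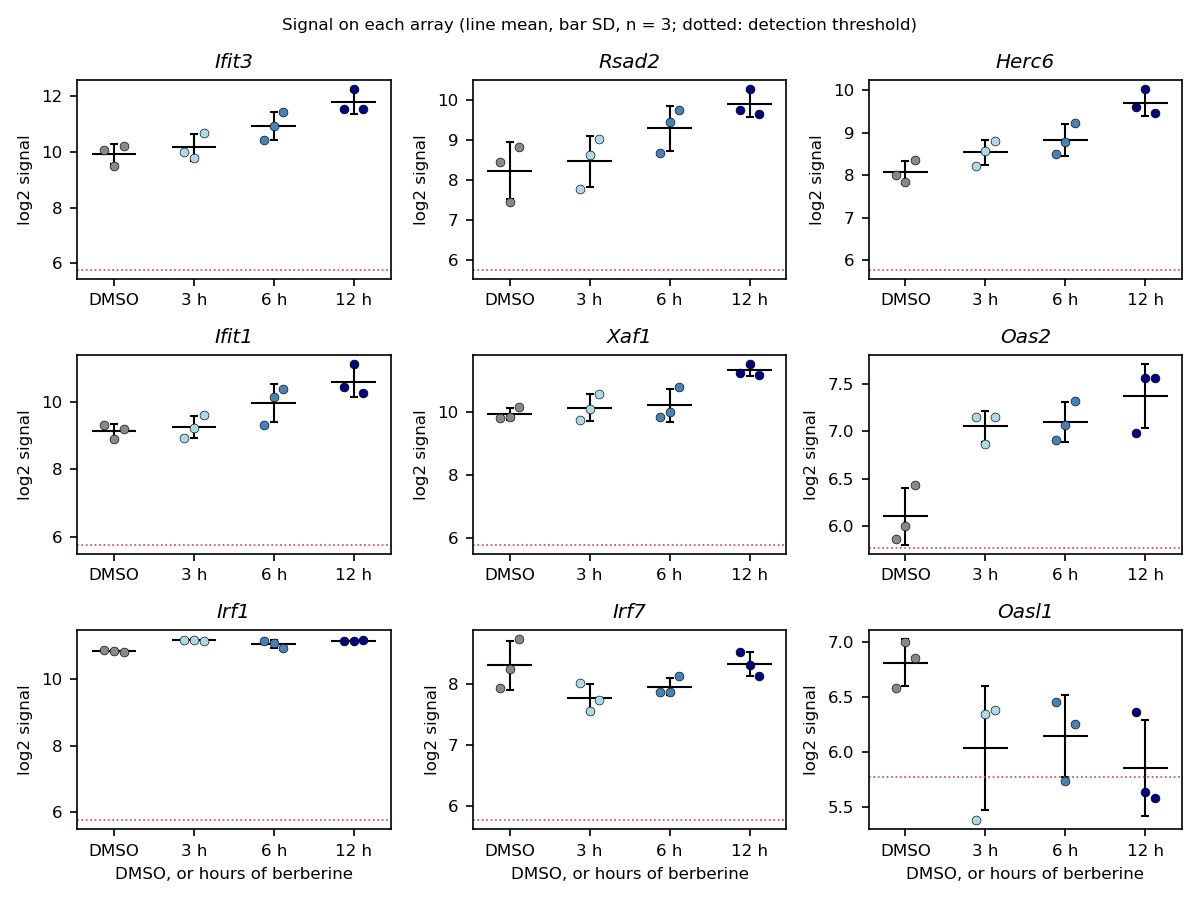
Log2 signal by group for Ifit3, Rsad2, Herc6, Ifit1, Xaf1, Oas2, Irf1, Irf7 and Oasl1, with a point per array, a line for the mean of 3 arrays, a bar for the SD and the detection threshold of 5.77 as a dotted line. The 12 h arrays of Ifit3, Herc6 and Xaf1 lie above those of every other group, Irf1 is already raised at 3 h, Irf7 shows no such rise, and Oasl1 lies below DMSO at every time.

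The oligoadenylate synthetases answer double-stranded RNA by making a messenger that activates RNase L. Of 4 tested, 3 were higher at 12 h and 2 at 6 h. Oas2 had log2 signals of 5.87, 6.01 and 6.44 with DMSO, 7.15, 6.87 and 7.15 at 3 h, 6.91, 7.07 and 7.32 at 6 h and 6.99, 7.57 and 7.57 at 12 h. All 9 berberine arrays lay above all 3 DMSO arrays. Oas2 was 2.41-fold higher at 12 h (1.27 ± 0.25 SE, adjusted p = 0.000926) and 2.00-fold higher at 6 h (1.00 ± 0.25 SE, adjusted p = 0.0125, or 0.0557 to 0.0559 without DMSO replicate 1 or 6 h replicate 3), and at 3 h the change of 0.95 ± 0.25 SE was not called (adjusted p = 0.0609). Oas1a had log2 signals of 8.09, 7.73 and 7.83 with DMSO, 7.52, 8.46 and 8.63 at 3 h, 8.54, 8.24 and 9.10 at 6 h and 9.00, 9.13 and 8.93 at 12 h. The lowest 3 h array lay under the DMSO arrays and the 12 h arrays lay well above them. Oas1a was 2.19-fold higher at 12 h (1.13 ± 0.24 SE, adjusted p = 0.00164) and 1.67-fold higher at 6 h (0.74 ± 0.24 SE, adjusted p = 0.0463, or 0.0502 to 0.217 without DMSO replicates 1, 2 or 3, 12 h replicates 1, 2 or 3, 3 h replicate 2 or 6 h replicates 1 or 3). Oasl2, a synthetase with ubiquitin-like domains, had log2 signals of 7.34, 7.41 and 6.79 with DMSO, 7.24, 7.07 and 7.73 at 3 h, 6.98, 7.39 and 8.00 at 6 h and 8.23, 8.48 and 8.43 at 12 h. Only the 12 h arrays lay wholly above DMSO, by 2.30-fold on average (1.20 ± 0.25 SE, adjusted p = 0.00138).

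Oasl1 lies next to Oasl2, has lost the synthetase activity and in mice holds back the translation of Irf7. It had log2 signals of 6.59, 7.00 and 6.86 with DMSO, 5.38, 6.35 and 6.39 at 3 h, 6.46, 5.73 and 6.25 at 6 h and 6.36, 5.64 and 5.58 at 12 h. Every berberine array was below every DMSO array, an order found for 8.56% of all genes at 3 h and 14.3% at 6 h, and 4 of the 9 lay under the threshold. The log2 changes were -0.78 ± 0.37 SE at 3 h, -0.67 ± 0.37 SE at 6 h and -0.96 ± 0.37 SE at 12 h, and none was called (0.374, 0.272 and 0.0651 as adjusted p). At 12 h the adjusted p was 0.0492 after quantile normalization, 0.0133 with dim values raised to the threshold, 0.0393 without 12 h replicate 1 and 0.0448 without 3 h replicate 1. Of the 41 members, it alone had a mean at 12 h under that of DMSO.

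ISG15 is a ubiquitin-like protein that is joined to other proteins and removed again. Of the 3 genes tested around it, Herc6, the mouse ligase that attaches it, was higher. Herc6 had log2 signals of 8.00, 7.84 and 8.36 with DMSO, 8.22, 8.58 and 8.81 at 3 h, 8.49, 8.79 and 9.22 at 6 h and 9.62, 10.03 and 9.46 at 12 h. The 3 h arrays overlapped DMSO slightly, and the 6 and 12 h arrays lay above it without overlap. Herc6 was 3.10-fold higher at 12 h (1.63 ± 0.20 SE, adjusted p = 7.28e-06) and 1.70-fold higher at 6 h (0.77 ± 0.20 SE, adjusted p = 0.014, or 0.0513 to 0.0804 without DMSO replicates 1 or 2 or 6 h replicate 3). Its 3 other kept probe sets had log2 changes of 0.98, 1.10 and 1.16 at 12 h, and of 0.82, 0.48 and 0.39 at 6 h. With every kept probe set tested with limma, none of the 3 was called at 6 h, and the first was not called at 12 h. With the mean of its kept probe sets the 6 h change was 0.61 and the adjusted p 0.0925. Usp18, which removes ISG15 and dampens IFNAR2 signalling, ranged from 9.31 to 10.68 over the 12 arrays and was not called (0.39 at 12 h, adjusted p = 0.187, 95% interval -0.05 to 0.83). Trim25, a ubiquitin ligase of the RIG-I pathway, ranged from 11.63 to 12.25 and was not called (0.12, adjusted p = 0.446, interval -0.10 to 0.33), and 1 of its other kept probe sets had a log2 change of -0.21.

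Among 5 transcriptional regulators, 4 were higher at 12 h. Irf1, a transcription factor that binds the ISRE, had log2 signals of 10.89, 10.84 and 10.82 with DMSO, 11.20, 11.18 and 11.15 at 3 h, 11.15, 11.11 and 10.93 at 6 h and 11.15, 11.17 and 11.19 at 12 h. It was the only member called at 3 h, and all berberine arrays lay above all DMSO arrays. Irf1 was 1.26-fold higher at 3 h (0.33 ± 0.07 SE, adjusted p = 0.0113, or 0.0544 to 0.0579 without 3 h replicates 1 or 2), 1.16-fold higher at 6 h (0.21 ± 0.07 SE, adjusted p = 0.0368, or 0.0506 to 0.143 without DMSO replicates 1, 2 or 3, 3 h replicate 2 or 6 h replicates 1 or 2) and 1.25-fold higher at 12 h (0.32 ± 0.07 SE, adjusted p = 0.00132). No rise from 3 to 12 h was measured (-0.01 ± 0.07 SE, adjusted p = 0.955). Irf9, the DNA-binding part of ISGF3, had log2 signals of 8.53, 8.53 and 8.73 with DMSO, 8.64, 8.83 and 8.94 at 3 h, 8.62, 8.74 and 9.27 at 6 h and 9.29, 9.55 and 9.51 at 12 h. Its 12 h arrays lay above all others, and it was 1.81-fold higher than with DMSO (0.85 ± 0.15 SE, adjusted p = 0.000268). Stat2, its partner, had log2 signals of 6.87, 6.77 and 6.60 with DMSO, 6.72, 6.85 and 6.88 at 3 h, 6.75, 6.48 and 7.02 at 6 h and 7.39, 7.60 and 7.16 at 12 h. The 3 and 6 h arrays overlapped DMSO and the 12 h arrays did not. Stat2 was 1.56-fold higher at 12 h (0.64 ± 0.23 SE, adjusted p = 0.0449, or 0.0517 to 0.164 without DMSO replicates 1, 2 or 3, 12 h replicates 1 or 2 or 3 h replicates 1, 2 or 3).

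Sp100, a component of nuclear bodies, had log2 signals of 5.12, 5.16 and 6.59 with DMSO, 6.59, 5.70 and 6.74 at 3 h, 6.26, 6.50 and 7.03 at 6 h and 6.94, 6.94 and 6.56 at 12 h. In the DMSO group 2 of 3 arrays lay under the threshold and the third reached the 12 h range. With dim values raised to the threshold Sp100 was at least 1.71-fold higher at 12 h, and the fit gave a log2 change of 1.19 ± 0.41 SE (adjusted p = 0.0375, or 0.0992 to 0.148 without DMSO replicates 1 or 2 or 12 h replicates 1 or 2, and 0.0577 with dim values raised). Irf7, the factor that amplifies interferon production, had log2 signals of 7.93, 8.24 and 8.72 with DMSO, 8.00, 7.55 and 7.74 at 3 h, 7.87, 7.86 and 8.12 at 6 h and 8.52, 8.30 and 8.13 at 12 h. DMSO replicate 3 was its highest array, and the groups overlapped. Irf7 was not called against DMSO at 12 h (0.02 ± 0.19 SE, adjusted p = 0.956, 95% interval -0.38 to 0.42), and the sign turned without DMSO replicate 1 (-0.16), without 12 h replicate 1 (-0.083) and without DMSO replicate 2 (-0.0077).

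All 4 sensors of nucleic acid were higher at 12 h, and 0 were called at 3 or 6 h from the probe sets used. Ifih1, which encodes the double-stranded RNA sensor MDA5, had log2 signals of 8.07, 8.27 and 8.25 with DMSO, 8.29, 8.79 and 8.64 at 3 h, 8.45, 8.64 and 8.78 at 6 h and 9.30, 9.22 and 8.87 at 12 h. All berberine arrays lay above all DMSO arrays, and Ifih1 was 1.91-fold higher at 12 h (0.94 ± 0.15 SE, adjusted p = 0.000121). Zbp1, a sensor of Z-form nucleic acid that can start necroptosis, had log2 signals of 6.75, 7.82 and 7.43 with DMSO, 7.46, 8.03 and 8.11 at 3 h, 7.46, 7.80 and 8.63 at 6 h and 8.50, 8.54 and 8.25 at 12 h. DMSO replicate 1 was its lowest array, and Zbp1 was 2.14-fold higher at 12 h (1.10 ± 0.28 SE, adjusted p = 0.00702), or 0.0544 as adjusted p with the mean of its kept probe sets. Dhx58, which encodes the RIG-I relative LGP2, had log2 signals of 6.50, 6.18 and 6.86 with DMSO, 5.74, 6.64 and 7.29 at 3 h, 6.45, 7.14 and 7.18 at 6 h and 7.07, 8.01 and 7.70 at 12 h. The 12 h arrays lay above DMSO and overlapped those at 3 and 6 h, and Dhx58 was 2.11-fold higher at 12 h (1.08 ± 0.36 SE, adjusted p = 0.0313, or 0.0743 to 0.136 without DMSO replicates 1 or 2 or 12 h replicates 2 or 3). Ddx58, which encodes RIG-I, had log2 signals of 9.53, 9.19 and 9.77 with DMSO, 9.48, 9.51 and 9.41 at 3 h, 9.57, 9.57 and 9.99 at 6 h and 9.93, 9.89 and 9.86 at 12 h. The 12 h arrays were close together just above the highest DMSO array, and Ddx58 was 1.31-fold higher (0.39 ± 0.13 SE, adjusted p = 0.0303, or 0.0549 to 0.168 without DMSO replicates 1 or 2 or 12 h replicates 1, 2 or 3). Its other kept probe set, at or above the threshold on all 12 arrays, had log2 changes of 0.79 at 12 h and 0.55 at 6 h, both called when every kept probe set was tested with limma (adjusted p 0.00211 and 0.0443).

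The PARP enzymes transfer ADP-ribose to proteins or nucleic acids, and Dtx3l is a ubiquitin ligase that works in a complex with Parp9. Parp14, Dtx3l and Parp9 follow each other in RefSeq's gene order. All 4 genes of this group were higher at 12 h, and 0 were called at 3 or 6 h. Parp9 had log2 signals of 10.74, 10.71 and 10.76 with DMSO, 10.80, 10.94 and 11.04 at 3 h, 10.96, 10.84 and 11.06 at 6 h and 11.25, 11.37 and 11.36 at 12 h. Every berberine array exceeded every DMSO array, and Parp9 was 1.50-fold higher at 12 h (0.59 ± 0.07 SE, adjusted p = 1.44e-05). Parp14 had log2 signals of 8.19, 8.05 and 8.70 with DMSO, 8.27, 8.48 and 8.95 at 3 h, 8.59, 8.41 and 8.94 at 6 h and 9.18, 9.85 and 8.80 at 12 h. Its 12 h arrays spread over more than 1 log2 unit but stayed above DMSO, 1.95-fold higher (0.96 ± 0.23 SE, adjusted p = 0.00488). Parp12, which is recruited to stress granules, had log2 signals of 10.28, 10.31 and 10.23 with DMSO, 10.16, 10.28 and 10.48 at 3 h, 10.33, 10.22 and 10.53 at 6 h and 10.67, 10.92 and 10.62 at 12 h. The 3 and 6 h arrays overlapped DMSO, and at 12 h the gene was 1.38-fold higher (0.46 ± 0.10 SE, adjusted p = 0.00195). Dtx3l had log2 signals of 10.05, 10.22 and 10.04 with DMSO, 10.06, 10.14 and 10.29 at 3 h, 10.07, 10.11 and 10.20 at 6 h and 10.46, 10.66 and 10.40 at 12 h. Its 12 h arrays lay above all others, 1.32-fold higher than DMSO (0.40 ± 0.09 SE, adjusted p = 0.00212).

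The guanylate-binding proteins Gbp2 and Gbp3 and the immunity-related GTPases Igtp and Iigp1 attack the vacuoles of intracellular parasites and bacteria. All 4 were higher at 12 h, and 0 were called at 3 or 6 h. Gbp3 had log2 signals of 8.36, 8.57 and 8.78 with DMSO, 8.12, 8.71 and 9.04 at 3 h, 8.70, 8.94 and 9.55 at 6 h and 9.18, 10.06 and 9.41 at 12 h. At 12 h, and at neither other time, all 3 arrays lay above all DMSO arrays, and Gbp3 was 1.97-fold higher at 12 h (0.98 ± 0.24 SE, adjusted p = 0.0056). Iigp1 had log2 signals of 9.36, 9.16 and 9.64 with DMSO, 9.12, 9.25 and 9.82 at 3 h, 9.22, 9.83 and 10.01 at 6 h and 10.17, 10.77 and 10.03 at 12 h. The 12 h arrays were the highest, 1.91-fold over DMSO (0.94 ± 0.21 SE, adjusted p = 0.003). Igtp had log2 signals of 8.64, 8.74 and 9.05 with DMSO, 8.81, 8.55 and 8.70 at 3 h, 8.84, 9.13 and 9.28 at 6 h and 9.17, 10.00 and 9.58 at 12 h. Its 3 h arrays lay within the DMSO range or just under it, and at 12 h it was 1.71-fold higher (0.78 ± 0.17 SE, adjusted p = 0.00244). Gbp2 had log2 signals of 10.12, 10.23 and 9.88 with DMSO, 9.99, 10.37 and 10.23 at 3 h, 10.07, 10.50 and 10.48 at 6 h and 10.76, 10.82 and 10.48 at 12 h. The gene was 1.53-fold higher at 12 h (0.61 ± 0.13 SE, adjusted p = 0.00154), while a second kept probe set, of a kind that can bind several transcripts, had a log2 change of 0.18.

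Ccl5 and Cxcl10 encode chemokines that draw T cells, and Tap1 encodes part of the transporter that loads peptides for class I presentation. Tap1 had log2 signals of 8.10, 8.11 and 8.33 with DMSO, 8.36, 8.72 and 8.56 at 3 h, 8.68, 8.57 and 8.79 at 6 h and 8.91, 8.90 and 9.04 at 12 h. All berberine arrays lay above all DMSO arrays, and Tap1 was 1.70-fold higher at 12 h (0.77 ± 0.12 SE, adjusted p = 0.000147). At 6 h it was 1.41-fold higher (0.50 ± 0.12 SE, adjusted p = 0.0114, or up to 0.0499984 with a single array left out). Ccl5 had log2 signals of 8.92, 9.33 and 8.89 with DMSO, 9.04, 9.32 and 9.52 at 3 h, 9.62, 9.12 and 9.52 at 6 h and 10.14, 9.79 and 9.49 at 12 h. The 12 h arrays lay above DMSO, 1.69-fold higher (0.76 ± 0.17 SE, adjusted p = 0.00272), and overlapped those at 3 and 6 h. Cxcl10 had log2 signals of 7.22, 6.51 and 7.23 with DMSO, 6.26, 7.57 and 7.16 at 3 h, 7.18, 7.79 and 8.05 at 6 h and 7.57, 7.83 and 7.91 at 12 h. All 12 h arrays exceeded all DMSO arrays, but the log2 change of 0.78 ± 0.30 SE was not called (adjusted p = 0.0655, 95% interval 0.14 to 1.42). Its adjusted p was 0.0286 without 3 h replicate 1 and 0.0493 without 3 h replicate 2.

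The comparisons between berberine times do not involve the DMSO arrays in the difference. No DMSO array is labelled with a time, so hours of berberine and hours in culture cannot be told apart here either. In these comparisons 27 members were higher at 12 h than at 3 h and 0 lower, against 8.01% and 9.71% of all genes. At 12 h against 6 h, 11 were higher and 0 lower, against 2.5% and 3.18%. At 6 h against 3 h, 0 were called in either direction by limma, against 1.19% and 1.15%. At an unadjusted p under 0.05, 6 were higher and 0 lower in that comparison, where 7.32% of all genes were higher. The median log2 changes of the members were 0.62, 0.44 and 0.16 in these comparisons, against -0.02, -0.01 and -0.01 over all genes. The count at 12 h against 6 h was 2 without 12 h replicate 2 or without 6 h replicate 2, 3 without 6 h replicate 1 and 7 without 12 h replicate 1. The count at 12 h against 3 h was 17 without 12 h replicate 2. The count at 6 h against 3 h was 1 without 3 h replicate 3 and 2 without 6 h replicate 1.

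In 36 of 41 members, or 87.8%, the means ordered as 3 h under 6 h under 12 h, against 21.5% of all genes tested. The exceptions were Oasl1, Irf1, Stat2, Dtx3l and Trim25. Xaf1 had the largest called change between 6 and 12 h, with a log2 change of 1.11 ± 0.21 SE (adjusted p = 0.00402). Oas2 had 0.32 ± 0.25 SE between 3 and 12 h (adjusted p = 0.448), so most of its difference from DMSO was measured at 3 h already, where it was not called.

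Arrays of a group differed in the members' level. The median over members of the log2 signal minus the DMSO mean was -0.05, -0.06 and 0.13 on the DMSO arrays, -0.04, 0.11 and 0.34 at 3 h, 0.11, 0.24 and 0.61 at 6 h, and 0.69, 1.04 and 0.68 at 12 h. The highest 6 h array, replicate 3, thus came near the 12 h arrays. Within its group, replicate 3 was the highest array for 30 of 41 members at 3 h and for 35 at 6 h, against 34.5% and 29.9% of all genes. At 12 h, replicate 2 was the highest for 32 members, against 30.7% of all genes, and DMSO replicate 3 for 25, against 35.5%. What sets these arrays apart was not tested. Between 47.9% and 51.6% of probe sets reached the threshold on an array. The threshold is the median over all arrays, so the average of these shares was fixed in advance.

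**Figure D4:**
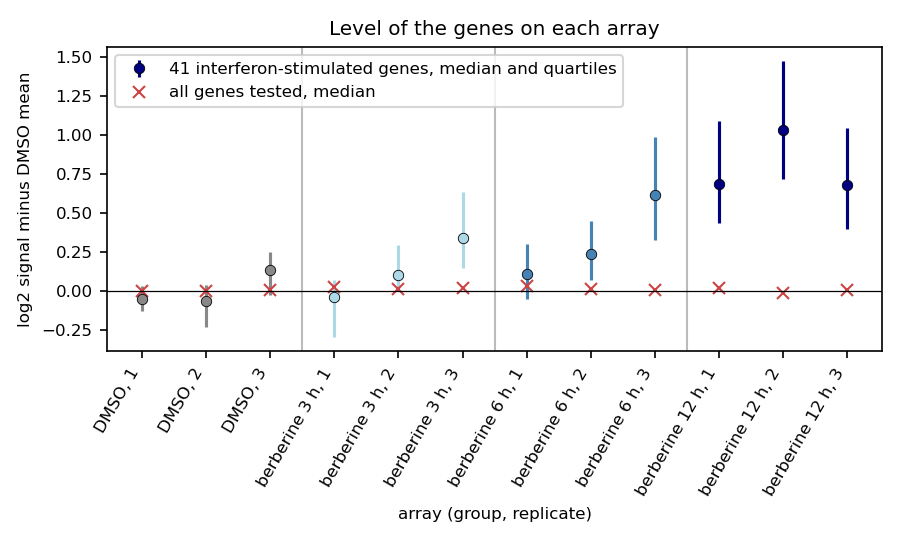
Median log2 signal minus the DMSO mean on each of the 12 arrays, over the 41 tested members and over all genes tested, with bars from the lower to the upper quartile of the members. The 12 h arrays stand at 0.69, 1.04 and 0.68 for the members while all genes stay close to 0.

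Of 61 further genes of the interferon pathway, 53 were tested, and 19 were higher and 1 lower at 12 h, 6 higher and 1 lower at 6 h, and 2 higher and 0 lower at 3 h. Of all genes tested, 13.7% were called higher and 14.6% lower at 12 h, 7.24% and 6.98% at 6 h, and 1.09% and 0.816% at 3 h. The median log2 change of the 53 genes at 12 h was 0.23, against -0.01 over all genes. Of 5 listed interferon genes only 2, Ifnb1 and Ifng, were tested, and neither was called at any time. Ifnb1, interferon beta, had log2 signals of 5.82, 6.31 and 6.16 with DMSO, 5.78, 6.15 and 5.25 at 3 h, 1.85, 5.50 and 5.76 at 6 h and 4.38, 4.34 and 5.80 at 12 h, near or under the threshold, and its change was -1.26 ± 0.83 SE at 12 h (adjusted p = 0.296). Ifna2 and Ifna4 reached the threshold on 0 arrays, and Ifng was not called (1.57 at 6 h, and 1.29 at 12 h with an adjusted p of 0.287). Socs1, an inhibitor of the JAK kinases, lay near the threshold and was not called (0.52, adjusted p = 0.474).

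Both chains of the type I receptor were higher at 12 h. Ifnar1 had log2 signals of 9.60, 9.76 and 9.66 with DMSO, 9.76, 9.80 and 9.71 at 3 h, 9.99, 10.14 and 9.79 at 6 h and 9.93, 9.94 and 10.00 at 12 h, and its 6 and 12 h arrays lay above DMSO. Its change was 0.29 ± 0.09 SE at 12 h (adjusted p = 0.0234, or 0.0577 to 0.0926 without DMSO replicates 1 or 3 or 12 h replicate 3) and 0.30 ± 0.09 SE at 6 h (adjusted p = 0.0329, or 0.0785 to 0.171 without DMSO replicates 1 or 3 or 6 h replicates 1 or 2). Ifnar2 had log2 signals of 10.84, 10.81 and 10.76 with DMSO, 10.97, 10.98 and 10.97 at 3 h, 10.92, 11.04 and 10.96 at 6 h and 11.10, 11.19 and 11.06 at 12 h, with all berberine arrays above DMSO. Its change was 0.31 ± 0.06 SE at 12 h (adjusted p = 0.00113), but -0.046 with the mean of its kept probe sets. Ifngr1, the ligand-binding chain of the gamma receptor, was lower, with log2 signals of 11.15, 11.04 and 11.05 with DMSO, 10.96, 10.88 and 10.98 at 3 h, 10.69, 10.69 and 10.69 at 6 h and 10.42, 10.46 and 10.30 at 12 h. Its groups followed each other downwards without overlap from DMSO to 12 h, and the change at 3 h was not called. The change was -0.69 ± 0.07 SE at 12 h (adjusted p = 7.03e-07) and -0.39 ± 0.07 SE at 6 h (adjusted p = 0.000763). Jak1, the kinase shared by both receptors, was 1.55-fold higher at 12 h (0.63 ± 0.07 SE, adjusted p = 3.20e-06). Ptpn2, a phosphatase that acts on JAK1, was higher at 3 h (0.39 ± 0.06 SE, adjusted p = 0.00136, but 0.25 with an adjusted p of 0.505 with the mean of its kept probe sets), 6 h (0.69 ± 0.06 SE, adjusted p = 1.06e-06) and 12 h (0.73 ± 0.06 SE, adjusted p = 1.09e-07).

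**Figure D5:**
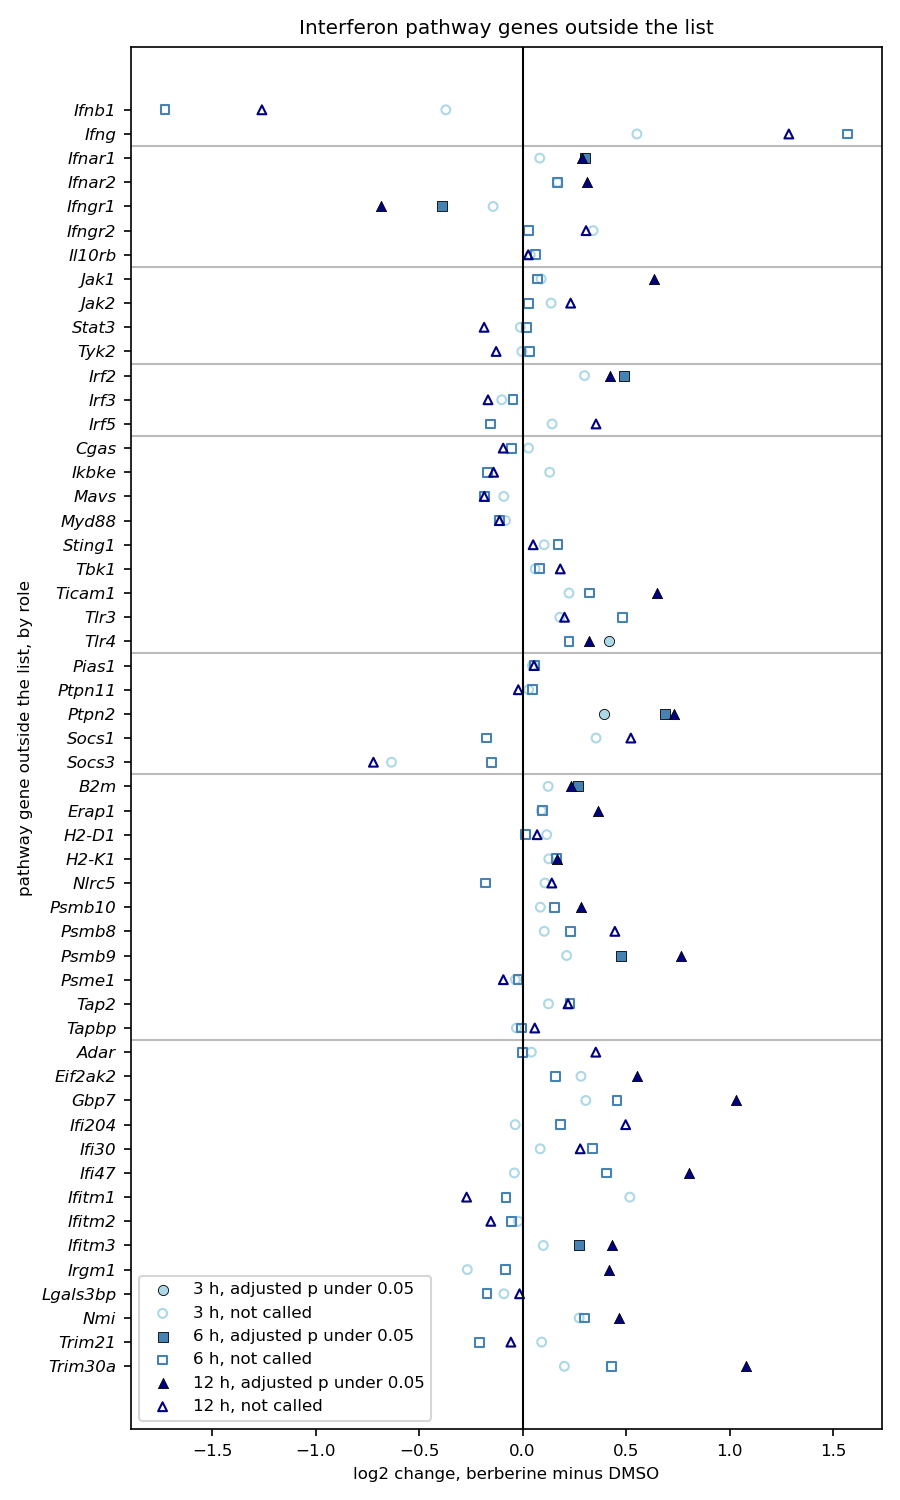
Log2 change against DMSO at 3, 6 and 12 h of the 53 tested interferon pathway genes outside the list, grouped by role, with filled symbols for an adjusted p under 0.05 and open symbols for the rest. Ifngr1 is the only gene called lower, and Ptpn2, Trim30a and Gbp7 are among the 19 called higher at 12 h.

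Of 9 tested genes listed as sensing adaptors, 1 was called higher at 3 h, 0 at 6 h and 2 at 12 h, and 0 were lower. Over all genes, 1.09%, 7.24% and 13.7% were called higher at these times, and 0.816%, 6.98% and 14.6% lower. The median log2 change of the 9 at 12 h was 0.05. Tlr4, the receptor of bacterial lipopolysaccharide, had a change of 0.42 ± 0.10 SE at 3 h (adjusted p = 0.0371, or 0.0921 to 0.175 without DMSO replicates 1 or 2 or 3 h replicates 1 or 3) and 0.32 ± 0.10 SE at 12 h (adjusted p = 0.021, or 0.062 to 0.0806 without DMSO replicates 1 or 2 or 12 h replicate 1). Ticam1, its adaptor TRIF, had 0.65 ± 0.18 SE at 12 h (adjusted p = 0.0115, or 0.0651 without 12 h replicate 2). Of 3 tested IRF genes outside the members only Irf2, a relative of Irf1 that can oppose it, was called. Irf2 had 0.49 ± 0.13 SE at 6 h (adjusted p = 0.0203, or 0.0659 to 0.0892 without DMSO replicates 1 or 3 or 6 h replicates 1 or 2) and 0.42 ± 0.13 SE at 12 h (adjusted p = 0.026, or 0.0571 to 0.106 without DMSO replicates 1 or 3 or 12 h replicates 2 or 3). Each of these calls was lost without at least 1 single array, and those of Tlr4 also with the mean of its kept probe sets (adjusted p 0.461 at 3 h and 0.124 at 12 h).

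Of 11 tested antigen-processing genes outside the members, 5 were higher at 12 h, against 13.7% of all genes. Psmb9, a subunit of the immunoproteasome, had the largest change, 0.76 ± 0.14 SE at 12 h (adjusted p = 0.000418) and 0.48 ± 0.14 SE at 6 h (adjusted p = 0.0263, or 0.0582 to 0.11 without DMSO replicates 1 or 3 or 6 h replicates 1 or 3). Psmb10, another such subunit, had 0.28 ± 0.07 SE at 12 h (adjusted p = 0.00407). Erap1, which trims peptides, had 0.37 ± 0.10 SE (adjusted p = 0.0107, or 0.0535 without DMSO replicate 3, and 0.0933 with the mean of its kept probe sets). The class I heavy chain gene H2-K1 had 0.16 ± 0.06 SE (adjusted p = 0.037, or 0.0502 to 0.109 without DMSO replicates 1, 2 or 3, 12 h replicates 1, 2 or 3 or 3 h replicate 2), and 0.061 with an adjusted p of 0.533 with the mean of its kept probe sets. B2m, the class I light chain, had 0.24 ± 0.07 SE at 12 h (adjusted p = 0.0115, or 0.0743 to 0.0772 without DMSO replicate 1 or 12 h replicate 1, and 0.707 after quantile normalization), and 0.27 ± 0.07 SE at 6 h (adjusted p = 0.0109, or 0.0668 without DMSO replicate 1), which was -0.010 after quantile normalization.

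Of 14 other tested interferon-stimulated genes outside the members, 7 were higher at 12 h, against 13.7% of all genes. Trim30a, an interferon-inducible ligase of mice, was 2.12-fold higher (1.08 ± 0.18 SE, adjusted p = 0.000245), and the guanylate-binding protein Gbp7 2.04-fold (1.03 ± 0.17 SE, adjusted p = 0.000189). Ifi47, an immunity-related GTPase, had 0.80 ± 0.21 SE (adjusted p = 0.00884, or 0.0628 without 12 h replicate 2), and Irgm1, a regulator of that family, 0.42 ± 0.14 SE (adjusted p = 0.0348, or 0.095 to 0.197 without DMSO replicates 1 or 2 or 12 h replicate 2). Eif2ak2, the kinase PKR that stops translation on double-stranded RNA, had 0.55 ± 0.14 SE (adjusted p = 0.0057, or 0.197 with the mean of its kept probe sets). Ifitm3, which blocks viral fusion, had 0.43 ± 0.08 SE at 12 h (adjusted p = 0.000834) and 0.27 ± 0.08 SE at 6 h (adjusted p = 0.0381, or 0.0505 to 0.203 without DMSO replicates 1 or 3, 3 h replicate 2 or 6 h replicate 3). Nmi, the partner of Ifi35, had 0.47 ± 0.15 SE (adjusted p = 0.0265, or 0.0659 to 0.167 without DMSO replicates 1 or 3 or 12 h replicates 1 or 2).

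Markers were read beside these results because other cell types also express interferon-stimulated genes. Of 8 adipocyte markers 7 were on the array under a single symbol, and 6 to 7 reached the threshold on each array, with summed linear signals of 135468 to 174199 with DMSO, 159024 to 179535 at 3 h, 170757 to 188251 at 6 h and 155305 to 170317 at 12 h. A sum follows the brightest genes, and single adipocyte markers moved in both directions. At 12 h, 1 of the 7 was called higher and 3 lower, with a median log2 change of -0.083, at 6 h 4 higher and 2 lower, and at 3 h 0 higher and 1 lower. Over all genes, 13.7% were called higher and 14.6% lower at 12 h, 7.24% and 6.98% at 6 h, and 1.09% and 0.816% at 3 h. Cidec, a lipid droplet protein, had -1.44 ± 0.07 SE at 12 h (adjusted p = 1.62e-10), Lep, the hormone leptin, -2.06 ± 0.64 SE (adjusted p = 0.0227) and Cebpa, an adipogenic transcription factor, -0.59 ± 0.07 SE (adjusted p = 1.40e-05). Lpl, lipoprotein lipase, had 0.32 ± 0.09 SE (adjusted p = 0.0153), and Adipoq, Fabp4 and Pparg were not called at 12 h (0.25, 0.21 and -0.083). Of 7 leukocyte markers 4 were kept, and Ptprc and Itgam reached the threshold on 0 arrays and Adgre1 on 2. The summed linear signal of the 4 kept was 767 to 954 with DMSO, 994 to 996 at 3 h, 955 to 1095 at 6 h and 928 to 1179 at 12 h. Among them Cd14, a lipopolysaccharide co-receptor of macrophages, was higher at 12 h (0.38 ± 0.10 SE, adjusted p = 0.00761) and 6 h (0.34 ± 0.10 SE, adjusted p = 0.0292). The other 3 were not called at any time, with log2 changes at 12 h of 0.28 for Csf1r, 0.00035 for Lyz2 and -0.21 for Cd68, and the median of the 4 was 0.14. Of 4 endothelial markers only Kdr was kept, with linear signals of 31.97 to 70.2 with DMSO, 39.4 to 74.2 at 3 h, 11.9 to 68.8 at 6 h and 9.22 to 38.2 at 12 h. Of 8 fibroblast markers 7 were kept, with sums of 75675 to 91018 with DMSO, 87769 to 94252 at 3 h, 87947 to 94138 at 6 h and 86890 to 90563 at 12 h, and 1 of them was called higher and 2 lower at 12 h. The part of other cells, or of the adipocyte markers' changes, in the members' changes was not tested.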

How the data were processed

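For each array the authors deposited a column of log2 signals, made with MAS5 per the submitters' processing notes, which name no version of it. Every array had the same trimmed mean (2%) of linear signal, 500.004. Of 45037 non-control probe sets (64 controls were left out), 34945 had 1 gene symbol in the platform annotation, 932 several and 9160 none, and 0 symbols changed with RefSeq's gene table. The detection threshold was the median of all non-control log2 values, 5.77 (a linear signal of 54.6). Probe sets at or above it on 3 or more arrays were kept, 25053 in all, and each gene was represented by its brightest kept probe set, by one ending in _x_at only where there was no other.

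Tests were two-sided, by limma 3.58.1 under R 4.3.3. The 12 arrays entered 1 fit with 4 group means, which leaves 8 residual degrees of freedom, and eBayes used a trend on intensity. The p-values were adjusted over 12136 genes by the Benjamini-Hochberg method and called at an adjusted p under 0.05. SE is limma's standard error, and folds are ratios of geometric means. The members and lists were chosen with earlier results of these data known. Members called against DMSO, or changed by at least 0.5 on the log2 scale with a group mean at the threshold, are given on every array, and pathway genes are named when called against DMSO, with Ifnb1, Ifnar1, Ifnar2 and Socs1 besides. 1 further gene is not reported here.

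Alternatives were quantile normalization, no filter and a stricter one (6 arrays), dim values raised to the threshold, no intensity trend, the mean of a gene's kept probe sets, the replicate number as a block, each array left out, and, chosen after seeing the data, every kept probe set tested on its own. In 10 simulations of the 12 h comparison, 200 of 12136 genes were changed, all upwards, with noise drawn independently for each gene. The test found 45.4%, 72.3% and 89.4% of genes changed by 0.5, 1 and 2 on the log2 scale. Of its calls, 4.58% were false. In the data many more genes were called, in both directions, and the members moved together by array. The simulated rates therefore need not hold for the members. Promoters came from RefSeq (GRCm38.p6). Python 3.11.15 and matplotlib 3.10.9 drew the figures.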

Additional observations from a re-analysis of the deposited data

Results flagged for a closer look

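Differences from DMSO that themselves differed between times are listed here, by limma's test of the difference between berberine times (adjusted p under 0.05). The values are log2 changes, later time minus earlier time.

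Between 12 h and 6 h, 11 members differed, with log2 changes of Xaf1 1.11, Oasl2 0.92, Herc6 0.87, Irf9 0.57, Ifit2 0.57, Isg20 0.44, Samd9l 0.44, Ifi35 0.43, Dtx3l 0.38, Parp12 0.37 and Parp9 0.37.

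Between 12 h and 3 h, 27 members differed. The 14 largest log2 changes were Ifit3 1.62, Rsad2 1.42, Ifit1 1.34, Xaf1 1.18, Herc6 1.16, Ifit2 1.13, Oasl2 1.03, Rtp4 1.02, Gbp3 0.92, Iigp1 0.92, Igtp 0.90, Oas1a 0.82, Parp14 0.71 and Irf9 0.65. The remaining ones were Ifi35 0.63, Bst2 0.62, Irf7 0.56, Ifih1 0.55, Isg20 0.53, Samd9l 0.52, Ccl5 0.51, Gbp2 0.49, Ddx58 0.43, Parp12 0.43, Tap1 0.40, Parp9 0.40 and Dtx3l 0.34. Irf7 stands among them although it was not called against DMSO at 12 h. Its log2 changes against DMSO were -0.54 at 3 h and -0.35 at 6 h, and neither was called.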

How the results depend on the processing

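Counts of members called stayed within 1.5 times the reported count except as follows. Without the intensity trend in limma they were 0 at 3 h, 3 at 6 h, 2 at 12 h against 6 h and 17 at 12 h against 3 h. With the mean of a gene's kept probe sets they were 5 at 6 h and 7 at 12 h against 6 h. With every kept probe set tested on its own the count was 6 at 6 h, and with dim values raised to the threshold 2 at 3 h. With any array left out the count was 0 to 2 at 3 h, 3 to 11 at 6 h, 28 to 34 at 12 h, 0 to 2 at 6 h against 3 h, 2 to 13 at 12 h against 6 h and 17 to 28 at 12 h against 3 h. At 12 h against DMSO the other alternatives called 29 to 34 members.

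Deviations of same-numbered arrays from their group means correlated at -0.04 to 0.03 over 18 pairs, so the numbers were not taken to pair samples. The block by replicate number gave 1, 10 and 33 members called at 3, 6 and 12 h (32 shared with the 33 reported at 12 h) and 0, 13 and 27 between times, and under it Cxcl10 had an adjusted p of 0.0492 at 12 h and Stat2 of 0.0647. Signs turned for B2m at 6 h after quantile normalization (-0.010), for Ifnar2 at 12 h with the mean of probe sets (-0.046), and for Irf7 at 12 h, whose log2 change was -0.16 to 0.23 with any array left out and turned negative when DMSO replicate 1, DMSO replicate 2 (-0.0077) or replicate 1 at 12 h (-0.083) was dropped. The cause was not tested in any of these cases. Of 19 kept probe sets of the members besides those used, 18 had a higher mean at 12 h than with DMSO, 8 were called higher and 0 lower. Over all genes tested, with 1 probe set each, 49.1% had a higher mean, 13.7% were called higher and 14.6% lower. The shares over all kept probe sets are not given here.

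Dim probe sets limit what can be said of Mx2, Sp100, Oasl1, Ifnb1 and Socs1, whose signals lie near or under the threshold. Scaling by MAS5 uses 1 factor per array and corrects no bias that depends on brightness. The DMSO arrays are shared by all comparisons with DMSO and their incubation time is not given in the labels.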
